A study of Mus musculus with 12 samples.

Results

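The insulin and insulin-like growth factor (IGF) axis was followed in quadriceps of dystrophic mice together with myostatin, as 10 genes: the ligands Igf1 and Igf2, the receptors Igf1r and Insr, the receptor substrates Irs1 and Irs2, the binding proteins Igfbp3, Igfbp4 and Igfbp5, and Mstn. Each gene was measured by the transcript cluster (the array's unit of one gene model) that the platform annotation pairs with that symbol and no other. Of the 10 genes, 9 had such a cluster, 1 each, among the 30412 clusters paired with exactly 1 symbol. Insr, the insulin receptor gene, was not analysed here.

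All 12 arrays came from male utrn+/-;mdx mice on the C57BL/10 background, which lack dystrophin and carry a single functional copy of the related gene utrophin. Muscle was taken at 6 weeks of age in all groups, and drugs were given from 4 to 6 weeks of age. In the first treated group mice received lisinopril, an angiotensin-converting enzyme inhibitor, at 20 mg/kg per day with the mineralocorticoid receptor antagonist spironolactone at 100 mg/kg per day, in pellets. In the second, the same dose of lisinopril was combined with eplerenone, a more selective antagonist of that receptor, at 200 mg/kg per day, also in pellets. The third group took the glucocorticoid prednisolone, 1.5 mg/kg per day, with the drinking water. Chow without drug was the diet of the untreated mice, so neither the pellet nor the route of dosing was matched in them, and no healthy muscle was among the arrays. Each of the 4 groups had 3 arrays, labelled as separate biological replicates.

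IGF-1 and IGF-2 bind the IGF-1 receptor, which, like the insulin receptor, phosphorylates the docking proteins IRS1 and IRS2. These recruit phosphoinositide 3-kinase, and Akt then promotes protein synthesis through mTOR, glucose uptake, and retention of FoxO transcription factors in the cytoplasm. IGF-binding proteins carry the ligands and set how much reaches the receptor. Myostatin, secreted by muscle fibres, acts through activin receptors and Smad proteins to limit muscle mass, and the pathways meet at Akt.

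Among the 9 measured genes, Irs2 and Igfbp3 changed under prednisolone and Igf1 separated the eplerenone combination from prednisolone. Irs2 fell 2.69-fold and Igfbp3 rose 3.00-fold against untreated muscle. Igf1 was 1.54-fold higher with eplerenone plus lisinopril than with prednisolone. No measured gene passed the test between either combination and untreated muscle, although Irs2 lay more than 2-fold lower in both. Igf2, Igf1r, Irs1, Igfbp4, Igfbp5 and Mstn passed in none of the 6 comparisons.

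The promoters of both receptor substrates are printed first because Irs2 carried the largest fall while Irs1, its paralog, had estimates above 0 in the same comparisons. Those of Igf1 and Igfbp3, the other genes that passed, follow. Each is the 250 bases before the RefSeq gene start on build GRCm38.p6, written 5′ to 3′ on the strand of the gene. Capitals mark matches, on either strand, to 7 motifs: the FoxO core GTAAACA, the insulin response element CAAAACA, the glucocorticoid receptor half-site AGAACA, the cAMP response element half-site TGACG, the E-box CACGTG, the TATA box TATAAA and the GC box GGGCGG.
Irs2, chr8:11008930-11009179, minus strand: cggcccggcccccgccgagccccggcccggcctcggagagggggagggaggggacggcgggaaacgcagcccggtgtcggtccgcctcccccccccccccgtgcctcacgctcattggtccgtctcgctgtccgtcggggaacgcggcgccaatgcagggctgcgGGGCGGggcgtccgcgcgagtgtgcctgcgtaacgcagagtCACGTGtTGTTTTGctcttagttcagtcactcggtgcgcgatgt
Irs1, chr1:82291440-82291689, minus strand: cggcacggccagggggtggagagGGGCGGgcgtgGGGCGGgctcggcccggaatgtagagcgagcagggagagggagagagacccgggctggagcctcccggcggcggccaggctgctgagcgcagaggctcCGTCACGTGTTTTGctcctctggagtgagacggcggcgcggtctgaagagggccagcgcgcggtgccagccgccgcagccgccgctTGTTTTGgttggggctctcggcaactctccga
Igf1, chr10:87860861-87861110, plus strand: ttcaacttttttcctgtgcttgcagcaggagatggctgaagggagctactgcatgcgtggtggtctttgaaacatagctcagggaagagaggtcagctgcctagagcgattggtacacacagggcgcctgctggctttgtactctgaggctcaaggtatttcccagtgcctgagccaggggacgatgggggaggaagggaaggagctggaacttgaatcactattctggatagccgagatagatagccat
Igfbp3, chr11:7213924-7214173, minus strand: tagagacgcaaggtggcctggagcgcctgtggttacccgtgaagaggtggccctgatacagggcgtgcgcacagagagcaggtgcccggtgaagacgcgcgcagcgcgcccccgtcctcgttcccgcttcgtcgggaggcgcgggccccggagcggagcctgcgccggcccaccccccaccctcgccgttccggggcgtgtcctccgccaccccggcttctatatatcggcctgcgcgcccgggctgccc

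Both substrate promoters hold an E-box next to an insulin response element read on the opposite strand. With positions counted from the gene start, the E-box of Irs2 begins at -44 and its insulin response element at -37. In Irs1 they begin at -115 and -111 and overlap each other, and the E-box also overlaps a cAMP half-site. A further insulin response element of Irs1 begins at -32. The E-box letters occur in 6.0% and the insulin response element letters in 5.6% of 32851 promoters of the same length, and 97 promoters (0.3%) hold both. Neither the Igf1 nor the Igfbp3 window holds any of the 7 motifs. Among the other measured genes, Mstn has a TATA box at -29 and a cAMP half-site at -58, and Igfbp4 has a TATA box at -28. Igf1r has GC boxes alone and Igfbp5 none of the 7. One of the 4 listed Igf2 starts has a glucocorticoid receptor half-site, letters found in 16.1% of all promoters. The other motifs occur in 3.2% (FoxO core), 17.8% (cAMP half-site), 12.4% (TATA box) and 32.7% (GC box) of promoters. GC content is 72.8% for Irs2 and 72.4% for Irs1, against a median of 52.4% over all promoters. These are letter matches only. No binding or methylation was measured.

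Values are log2 signals as the authors normalised them, so a difference of 1 is a 2-fold change, and levels of different genes are not compared because each is read by its own probes. Group values are means ± SD of 3 arrays. Differences are from limma with a standard error (SE), and p-values were adjusted over all 30412 clusters with a threshold of 0.05. The test over the 4 groups passed for Igf1 (adjusted p = 0.0310) and Irs2 (adjusted p = 0.0284), and 1.93% of all clusters passed it. Igfbp5 came next (adjusted p = 0.0650) and the remaining genes lay between 0.127 (Igfbp3) and 0.985 (Igfbp4). No member passed that test when untreated array 2, eplerenone combination array 2 or any of the 3 prednisolone arrays was left out, and 1 passed without untreated array 3 or without eplerenone combination array 1 or 3.

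**Figure D1:**
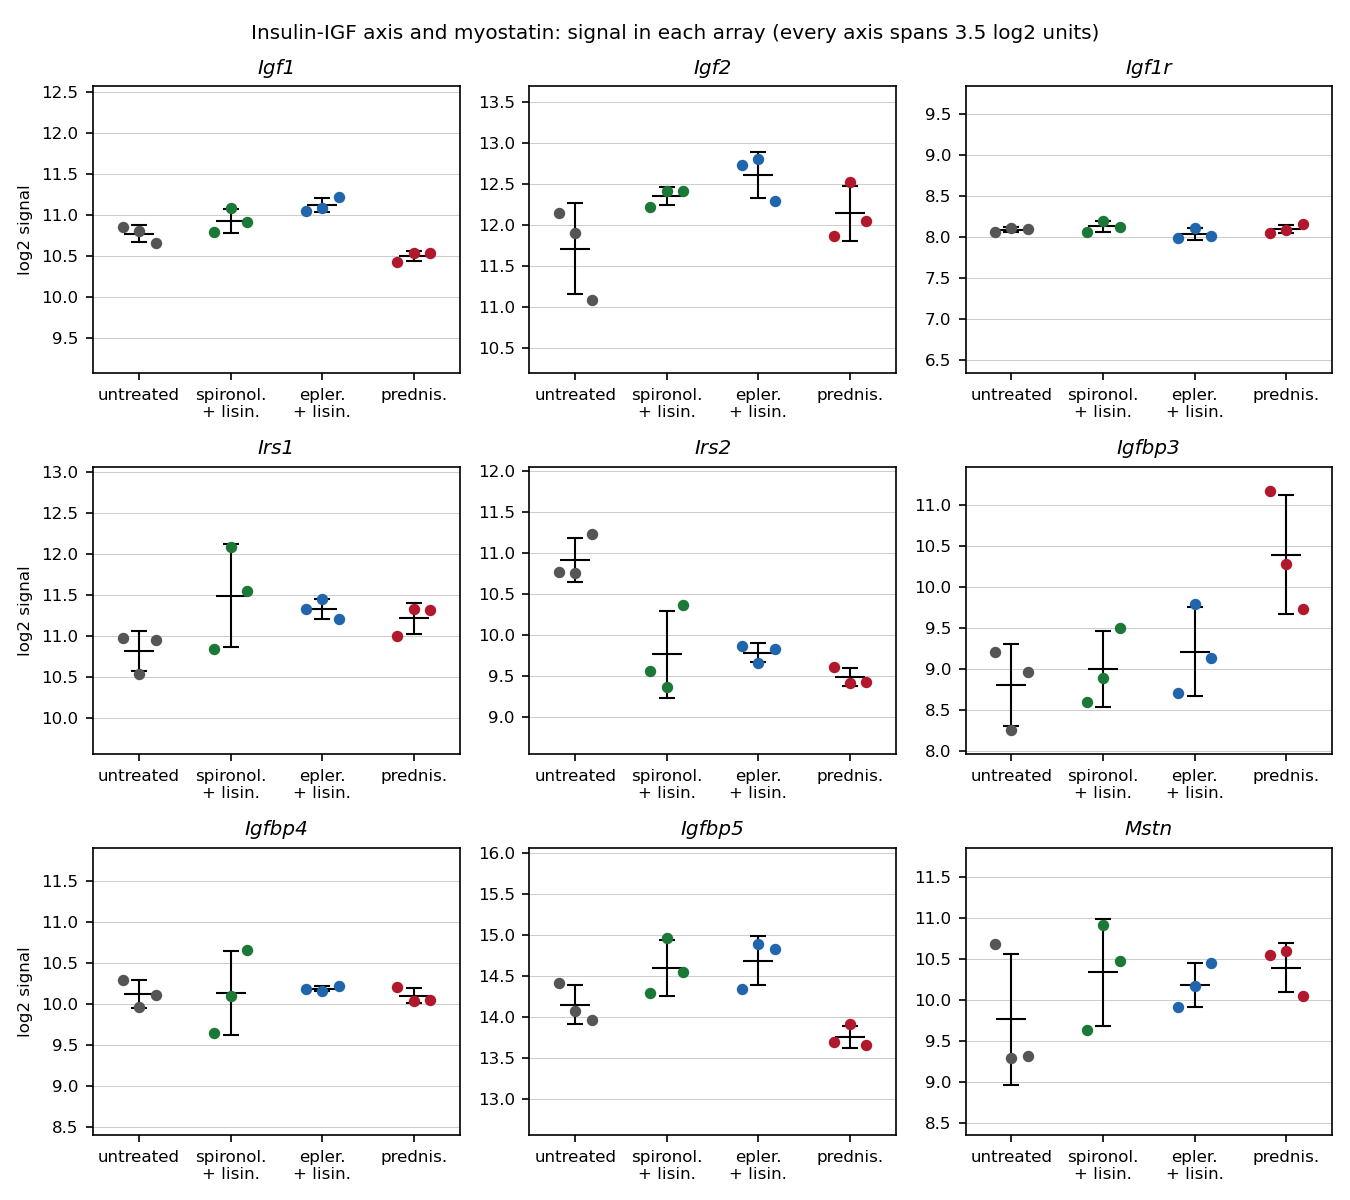
Log2 signal of the 9 measured genes in each of the 12 arrays (points), by group, with the group mean and SD (bars). Every axis spans the same 3.5 log2 units: Irs2 is higher in the 3 untreated arrays than in any treated array, Igfbp3 is higher in the 3 prednisolone arrays (9.73 to 11.17) than in any untreated array, and Igf1r lies within 7.98 to 8.19.

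Igf1, the growth factor that drives fibre growth and repair, was lowest under prednisolone. It read 10.85, 10.81 and 10.65 in untreated muscle and 10.43, 10.54 and 10.53 under prednisolone. With spironolactone plus lisinopril it read 10.79, 11.08 and 10.91, and with eplerenone plus lisinopril 11.05, 11.08 and 11.22. All prednisolone arrays lay below every other array, and all eplerenone combination arrays lay above every untreated array. The means ran from 11.12 ± 0.09 with eplerenone through 10.93 ± 0.15 with spironolactone and 10.77 ± 0.11 in untreated muscle to 10.50 ± 0.06 under prednisolone. Between neighbours in that order the arrays overlapped except at the last step. The eplerenone combination exceeded prednisolone by 0.62 ± 0.09 (SE; adjusted p = 0.0204). The spironolactone combination exceeded it by 0.43 ± 0.09 and missed the threshold (adjusted p = 0.0623). Against untreated muscle the differences were 0.35 with eplerenone (adjusted p = 0.215), 0.16 with spironolactone (adjusted p = 0.421) and -0.27 with prednisolone (adjusted p = 0.118). The difference between the eplerenone combination and prednisolone stayed between 0.57 and 0.65 when any array was left out. It missed the threshold without eplerenone combination array 1 (0.65, adjusted p = 0.0714), array 2 (0.64, 0.0722) or array 3 (0.57, 0.0619) and without prednisolone array 1 (0.58, 0.108) or array 2 (0.64, 0.0910).

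Fibroblast markers were also lowest under prednisolone. Their summed log2 signal over 7 of the 8 listed genes was 18.76 to 18.84 under prednisolone, 19.17 to 19.18 with eplerenone plus lisinopril, 18.94 to 19.39 with spironolactone plus lisinopril and 18.97 to 19.26 in untreated muscle. The collagen genes Col1a1 and Col3a1 and the surface marker Thy1 passed as lower under prednisolone against each of the other 3 groups. The other 4 of the 7 did not pass. Over all clusters 3.17% passed as lower against untreated muscle. Between the combinations and prednisolone 0.822% (spironolactone) and 0.608% (eplerenone) passed in either direction. Endothelial markers, 7 of 8 measured, summed to 13.56 to 13.75 under prednisolone and to 14.10 to 15.16 over the other arrays. Cdh5 (mean 13.85, next Kdr at 11.24) weighs most in that linear sum. By the median over the 7 genes of the deviation from each gene's mean, untreated array 2 (-0.29) lay below prednisolone array 2 (-0.28). Of the 7, 1 passed as lower against untreated muscle (3.17% of all clusters) and none passed between either combination and prednisolone. The part of the fibroblast and endothelial markers in the Igf1 difference was not tested. In whole muscle fewer cells of a type and less RNA per cell cannot be told apart.

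Igf2, the ligand of fetal growth and of differentiating myoblasts, varied most in untreated muscle. It read 12.15, 11.90 and 11.09 there. It read 12.22, 12.42 and 12.42 with spironolactone, 12.73, 12.80 and 12.29 with eplerenone, and 11.87, 12.52 and 12.04 under prednisolone. Both combinations lay above all untreated arrays, while prednisolone overlapped them. The differences from untreated muscle were 0.90 ± 0.26 (SE) with eplerenone (adjusted p = 0.230), 0.64 with spironolactone (adjusted p = 0.268) and 0.43 with prednisolone (adjusted p = 0.374), none past the threshold. Without untreated array 3, the lowest, they were 0.58, 0.33 and 0.12. The means ran from 12.61 ± 0.28 with eplerenone through 12.35 ± 0.11 with spironolactone and 12.14 ± 0.34 under prednisolone to 11.71 ± 0.56 untreated, and neighbours overlapped at each step.

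Igf1r, the receptor tyrosine kinase for both ligands, was the steadiest of the genes. Its means were 8.09 ± 0.03 in untreated muscle, 8.12 ± 0.07 with spironolactone, 8.03 ± 0.07 with eplerenone and 8.09 ± 0.05 under prednisolone. Its spread within groups, a residual SD of 0.056, was smaller than that of most clusters (percentile 2.4). The 95% interval of the difference from untreated muscle ran from -0.12 to 0.20 with spironolactone, from -0.21 to 0.11 with eplerenone and from -0.15 to 0.17 with prednisolone.

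Irs2, a substrate that links the receptors to phosphoinositide 3-kinase, was lower in every treated group. Untreated arrays read 10.77, 10.76 and 11.23. Prednisolone arrays read 9.62, 9.42 and 9.44, those of the eplerenone combination 9.87, 9.66 and 9.84, and those of the spironolactone combination 9.56, 9.38 and 10.38. No treated array reached an untreated one, and the third spironolactone array stood above the other treated arrays. Irs2 fell by 1.43 ± 0.22 (SE; adjusted p = 0.00643) under prednisolone, from 10.92 ± 0.27 to 9.49 ± 0.11. The differences of the combinations from the same untreated arrays were -1.15 ± 0.22 for spironolactone, with a mean of 9.77 ± 0.53 (adjusted p = 0.104), and -1.13 ± 0.22 for eplerenone, with a mean of 9.79 ± 0.11 (adjusted p = 0.134). The 3 comparisons share their untreated arrays. The order of the means was untreated, eplerenone, spironolactone and prednisolone, and between treated groups the differences lay within the intervals: 0.28 (-0.21 to 0.77) for spironolactone minus prednisolone and 0.30 (-0.19 to 0.79) for eplerenone minus prednisolone.

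The Irs2 difference under prednisolone stayed between -1.51 and -1.27 and past the threshold when each array was left out in turn. The difference of the spironolactone combination passed without its own array 3 (-1.45, adjusted p = 0.0208) or without untreated array 1 (-1.23, adjusted p = 0.0476), and that of the eplerenone combination without spironolactone combination array 3 (-1.13, adjusted p = 0.0358). Immune cell marker sums were mostly higher in untreated than in treated muscle. The 9 macrophage markers summed to 18.91 to 19.48 in untreated muscle and to 18.46 to 18.91 in treated muscle. Lyz2 (mean 18.59, next Cd68 at 15.24) weighs most in that sum. By the median over the 9 genes of the deviation from each gene's mean, untreated array 1 (0.06) lay below eplerenone combination array 3 (0.31). The 7 neutrophil markers summed to 9.96, 13.95 and 13.32 in untreated arrays 1 to 3 and to 8.98 to 10.49 in treated arrays. Against untreated muscle 2 of 9 macrophage and 1 of 7 neutrophil markers passed as lower under prednisolone (3.17% of all clusters). None passed with either combination. The part of both marker lists in the Irs2 differences was not tested.

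Irs1, the paralogous substrate, did not fall. It read 10.96, 10.53 and 10.94 in untreated muscle and was higher in all treated arrays except spironolactone combination array 1 (10.84). The means were 11.49 ± 0.63 with spironolactone, 11.32 ± 0.13 with eplerenone, 11.21 ± 0.19 under prednisolone and 10.81 ± 0.24 untreated. None of the differences from untreated muscle passed: 0.68 (adjusted p = 0.248), 0.51 (adjusted p = 0.412) and 0.40 (adjusted p = 0.408). The first was 0.38 without spironolactone combination array 2, which at 12.08 was the highest of the 12.

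Igfbp3, the main carrier of IGFs in blood, which is also made locally, rose under prednisolone. It read 9.20, 8.25 and 8.96 in untreated muscle and 11.17, 10.27 and 9.73 under prednisolone. The spironolactone combination gave 8.60, 8.89 and 9.50 and the eplerenone combination 8.71, 9.79 and 9.13. Prednisolone did not overlap untreated muscle or the spironolactone combination, and overlapped the eplerenone combination through a single array of each. The rise over untreated muscle was 1.59 ± 0.40 (SE; adjusted p = 0.0408), from 8.81 ± 0.50 to 10.39 ± 0.73. The combinations differed from untreated muscle by 0.19 (adjusted p = 0.834) and 0.40 (adjusted p = 0.690) and from prednisolone by -1.39 (adjusted p = 0.124) and -1.18 (adjusted p = 0.243). With a residual SD of 0.567 Igfbp3 was among the most variable clusters within groups (percentile 99.0; median of all clusters 0.163).

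The rise of Igfbp3 depended on single arrays. It was 1.20 (adjusted p = 0.135) without prednisolone array 1, 1.65 (adjusted p = 0.113) without prednisolone array 2, 1.31 (adjusted p = 0.139) without untreated array 2 and 1.67 (adjusted p = 0.0906) without untreated array 3. At an unchanged 1.59 it also missed the threshold without spironolactone combination array 1 (adjusted p = 0.0507) or array 2 (0.0577) or eplerenone combination array 3 (0.0583), which enter through the shared spread. Prednisolone array 1 was also the highest of its group in adipocyte markers. Over 6 of the 7 listed genes their summed signal was 15.91, 13.88 and 14.39 in the prednisolone arrays, 14.19 to 14.95 in untreated muscle, 14.36 to 14.78 with eplerenone and 14.23 to 16.67 with spironolactone. The part of these markers was not tested.

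Igfbp4, a carrier that mostly holds IGFs back from the receptor, had nearly equal means: 10.12 ± 0.17 untreated, 10.13 ± 0.51 with spironolactone, 10.19 ± 0.03 with eplerenone and 10.10 ± 0.09 under prednisolone. Its lowest and highest values, 9.65 and 10.66, were both in the spironolactone combination. The interval of the difference from untreated muscle reached from -0.46 to 0.42 under prednisolone, from -0.42 to 0.45 with spironolactone and from -0.37 to 0.51 with eplerenone.

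Igfbp5, the binding protein most linked to muscle differentiation, followed the order of Igf1. It read 14.42, 14.08 and 13.97 in untreated muscle, 14.29, 14.97 and 14.55 with spironolactone, 14.34, 14.89 and 14.83 with eplerenone, and 13.70, 13.91 and 13.66 under prednisolone. The means were 14.69 ± 0.30 with eplerenone, 14.60 ± 0.34 with spironolactone, 14.15 ± 0.23 untreated and 13.76 ± 0.14 under prednisolone. All 3 prednisolone arrays lay below all 9 others, and both combinations overlapped untreated muscle. The eplerenone combination exceeded prednisolone by 0.93 ± 0.19 (SE; adjusted p = 0.0611) and the spironolactone combination by 0.84 ± 0.19 (adjusted p = 0.0715), so neither passed. Against untreated muscle the differences were 0.54 (adjusted p = 0.287), 0.45 (adjusted p = 0.290) and, for prednisolone, -0.40 (adjusted p = 0.270). The fibroblast and endothelial marker sums given for Igf1 were also lowest under prednisolone. Their part was not tested.

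Mstn, the myostatin gene, differed widely between arrays of the same group. It read 10.68, 9.30 and 9.31 in untreated muscle, 9.63, 10.91 and 10.47 with spironolactone, 9.91, 10.17 and 10.45 with eplerenone, and 10.54, 10.60 and 10.04 under prednisolone. Untreated array 1 lay above all prednisolone and eplerenone combination arrays and inside the range of the spironolactone combination. The other untreated arrays lay below every treated array, so every treated group overlapped untreated muscle. The means were 10.40 ± 0.30 under prednisolone, 10.34 ± 0.65 with spironolactone, 10.18 ± 0.27 with eplerenone and 9.76 ± 0.80 untreated, and neighbours overlapped. The differences were 0.63 ± 0.39 (SE; adjusted p = 0.391) under prednisolone, 0.57 (adjusted p = 0.475) with spironolactone and 0.42 (adjusted p = 0.669) with eplerenone. Without untreated array 1 they became 1.09 (adjusted p = 0.0655), 1.03 (adjusted p = 0.129) and 0.88 (adjusted p = 0.202). Its residual SD of 0.553 was at percentile 98.8 of all clusters. Differences between treated groups ran from -0.22 to 0.16.

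**Figure D2:**
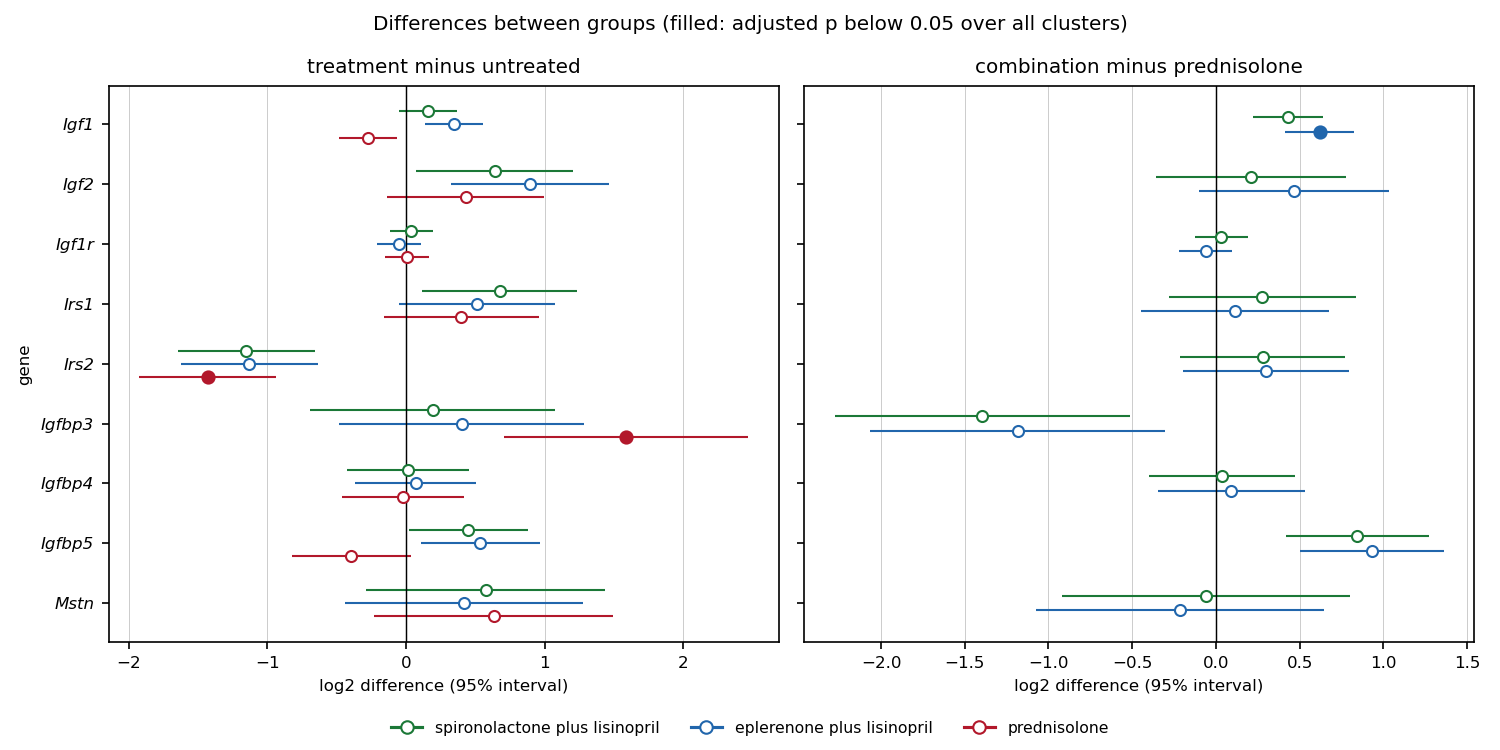
Differences in log2 signal (points) with 95% intervals (lines) for the 9 genes: each treatment minus untreated (left) and each combination minus prednisolone (right). Filled points passed the adjusted threshold of 0.05: Irs2 (-1.43) and Igfbp3 (1.59) for prednisolone minus untreated, and Igf1 (0.62) for the eplerenone combination minus prednisolone.

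Set beside all clusters, the members' counts were as follows. For prednisolone minus untreated, 1 of the 9 passed as higher, where 3.22% of all clusters did, and 1 as lower, where 3.17% did. The median difference of the 9 was 0.01, against -0.01 over all clusters. Arrays did not overlap for 5 of the 9 (26.7% of all clusters), and 2 differed by 2-fold or more (1.69%). The 5 were Igf1, Irs2 and Igfbp5 on the lower side and Irs1 and Igfbp3 on the higher.

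For the spironolactone combination minus untreated none of the 9 passed limma (0.0822% of clusters did). An unadjusted p under 0.05 was reached by 4 of the 9 and by 4929 of all 30412 clusters. The arrays of 2, Igf2 and Irs2, did not overlap (20.4%), 1 differed 2-fold (0.792%), and the median was 0.19 (all clusters, -0.05). For the eplerenone combination minus untreated none passed either (0.0296% did). Here 4 of the 9 and 4087 of the 30412 clusters had an unadjusted p under 0.05. The arrays of 4, Igf1, Igf2, Irs1 and Irs2, did not overlap (16.9%), 1 differed 2-fold (0.654%), and the median was 0.40 (all clusters, -0.03).

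Against prednisolone, none passed for the spironolactone combination (0.822% of clusters did) and 1, Igf1, passed for the eplerenone combination (0.608%). In both, 3 of the 9 had an unadjusted p under 0.05, as did 4953 (spironolactone) and 3789 (eplerenone) of the 30412 clusters. Arrays did not overlap for 3 of 9 in both, against 24% and 19.9% of clusters. Igfbp3 differed by 2-fold or more in both, as did 0.546% and 0.694% of clusters. The medians were 0.21 and 0.11 (all clusters, -0.04 and -0.02).

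The combinations were compared with each other although the antagonists were dosed differently, 100 and 200 mg/kg per day. None of the 9 genes differed in limma, none had an unadjusted p under 0.05, none was free of overlap and none reached 2-fold. Over all clusters 0% passed, 1365 of 30412 had an unadjusted p under 0.05, 9.68% did not overlap and 0.0822% reached 2-fold. Igf1 came nearest, at -0.19 for spironolactone minus eplerenone with a 95% interval of -0.40 to 0.02. The intervals were -0.51 to 0.47 for Irs2, -0.52 to 0.34 for Igfbp5 and -0.82 to 0.31 for Igf2. For Igfbp3 (-1.09 to 0.67) and Mstn (-0.70 to 1.02) they are wide enough to hold a 2-fold difference.

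Of 97 other genes of the pathway in 5 lists, 88 were measured. Under prednisolone 6 rose (3.22% of all clusters did), 6 fell (3.17%) and 76 did not pass. An unadjusted p under 0.05 was reached by 32 of the 88 and by 6577 of all 30412 clusters. Their median difference was 0.01. None passed for either combination against untreated muscle, with 22 genes (spironolactone) and 21 genes (eplerenone) at an unadjusted p under 0.05, where 4929 and 4087 of the 30412 clusters were.

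Insulin-responsive glucose uptake and storage was the list with the largest median under prednisolone, 0.38, and 2 of its 5 genes rose (3.22% of all clusters). Slc2a4, the insulin-regulated glucose transporter GLUT4, read 11.34, 10.89 and 10.93 in untreated muscle and 12.49, 12.57 and 12.12 under prednisolone, a rise of 1.34 ± 0.19 (SE; adjusted p = 0.00405). Gys1, muscle glycogen synthase, read 13.41, 13.12 and 13.16 against 14.21, 14.37 and 14.01, a rise of 0.97 ± 0.16 (adjusted p = 0.00769). Neither gene overlapped between the groups. The summed signal of the 8 skeletal fibre markers was also higher in all prednisolone arrays (22.30 to 22.36) than in any untreated array (22.14 to 22.27). Acta1 and Myh4, which weigh most in that sum, averaged 19.92, close to the highest value measured (19.93). None of the 8 passed between these groups. The part of the fibre markers was not tested. With eplerenone plus lisinopril Gys1 differed from untreated muscle by 0.58 (adjusted p = 0.213) and Slc2a4 by 0.51 (adjusted p = 0.291), and with spironolactone plus lisinopril Gys1 by 0.37 (adjusted p = 0.281) and the Rab regulator gene Tbc1d4 by 0.34 (adjusted p = 0.309).

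Downstream of the receptor substrates, in PI3K, Akt, mTOR and FoxO signalling, 4 of 33 measured genes rose and 1 fell under prednisolone (3.22% and 3.17% of all clusters). Gsk3a, a kinase that restrains glycogen synthase until Akt inhibits it, rose by 0.55 ± 0.08 (adjusted p = 0.00479). Rps6kb2, an S6 kinase, rose by 0.55 (adjusted p = 0.00893), Foxo4, a FoxO transcription factor, by 0.45 (adjusted p = 0.00956) and Tsc2, an inhibitor of mTOR complex 1, by 0.40 (adjusted p = 0.0294). Ddit4, the stress-induced mTOR inhibitor REDD1, fell by 2.99 ± 0.68 (adjusted p = 0.0269), from 11.02, 8.34 and 8.89 to 6.23, 6.58 and 6.48. All untreated Ddit4 values lay above all prednisolone values, and untreated array 1 stood well above the other two. In the combinations Gsk3a was the gene of this list with the smallest p: 0.47 with spironolactone (adjusted p = 0.0755) and 0.45 with eplerenone (adjusted p = 0.104). Next came Sesn1 with spironolactone (0.68, adjusted p = 0.181) and Rps6kb2 with eplerenone (0.48, adjusted p = 0.130).

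Closer to the receptor, 2 of 10 adaptors and inhibitors fell under prednisolone (3.17% of all clusters). Ptpn1, the phosphatase that switches off the insulin receptor, fell by 0.81 ± 0.20 (adjusted p = 0.0410) from 8.43, 9.17 and 9.31 to 8.18, 8.06 and 8.26, and the adaptor gene Gab1 fell by 0.42 (adjusted p = 0.0424). Ptpn1 was at -0.85 with spironolactone (adjusted p = 0.154) and -0.67 with eplerenone (adjusted p = 0.245). The exchange factor gene Sos1 was at 0.33 with spironolactone (adjusted p = 0.271), and Grb10, an inhibitory adaptor, at 0.55 with eplerenone (adjusted p = 0.217).

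Among 15 measured carriers and growth hormone pathway genes 1 fell under prednisolone (3.17% of all clusters). Igfbp7, a secreted protein with low affinity for IGFs, fell by 0.85 ± 0.15 (adjusted p = 0.0108), from 16.67, 16.41 and 16.85 to 15.86, 15.75 and 15.76. The kinase gene Jak2, which signals from the growth hormone receptor, was at -0.72 (adjusted p = 0.0520). It was at -0.64 with spironolactone (adjusted p = 0.193) and -0.72 with eplerenone (adjusted p = 0.213). Igfals, which completes the circulating IGF complex, was at 0.71 with spironolactone (adjusted p = 0.148), and Igf2r, the clearance receptor for IGF-2, at 0.20 with eplerenone (adjusted p = 0.282). Igfals read 5.06 to 5.30 in untreated muscle, below the array medians of 5.70 to 5.81, so the size of its difference is uncertain.

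In the myostatin and activin list 2 of 25 genes fell under prednisolone (3.17% of all clusters) and the median was -0.01. Fstl1, a secreted follistatin-related protein, fell by 0.80 ± 0.12 (adjusted p = 0.00586), from 14.09, 13.79 and 13.90 to 13.01, 13.11 and 13.24. Of the 88 pathway genes Fstl1 was also the only 1 that passed between the combinations and prednisolone. It was at 0.68 for spironolactone (adjusted p = 0.0403) and 0.76 for eplerenone (adjusted p = 0.0253). Over all clusters 0.822% and 0.608% passed in those comparisons. Bmp1, a protease that frees myostatin from its propeptide, fell by 0.51 (adjusted p = 0.0456). In the prednisolone arrays, where Fstl1, Bmp1 and Igfbp7 fell, the fibroblast (18.76 to 18.84) and endothelial (13.56 to 13.75) marker sums were lower than in any untreated array. So was the smooth muscle and pericyte sum (14.87 to 15.39), in which Acta2 (mean 14.77) and Rgs5 (14.44) weigh most. As lower passed 3 of 7 fibroblast, 1 of 7 endothelial and 1 of 6 smooth muscle and pericyte markers (3.17% of all clusters). The median difference of the last list was -0.09. The part of these marker lists was not tested. In the combinations the genes with the smallest p were the activin subunit genes Inhbb (-0.62, adjusted p = 0.202) and Inhba (-0.61, adjusted p = 0.242) with spironolactone, and Ltbp3 (0.45, adjusted p = 0.150) and Inhba (-0.63, adjusted p = 0.284) with eplerenone. Inhba read 5.52 to 6.03 in the combinations, near the array medians of 5.70 to 5.81.

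Gsk3a, Slc2a4, Gys1 and Fstl1 passed under prednisolone in all 21 alternatives tried. Among the 21, the choice of a second cluster repeated the main values for every gene named in this paragraph, so it could not change a call. Igfbp7 missed the threshold in 1, without prednisolone array 2 (-0.83, adjusted p = 0.0531). Rps6kb2 and Foxo4 missed it in 1 each, a fit of the 2 groups alone. Ddit4 missed it in 6, among them leaving out any prednisolone array or untreated array 3, with differences of -3.25 to -2.89. Without untreated array 1 its difference was -2.19 and passed (adjusted p = 0.0380). Tsc2 did in 9, Gab1 and Ptpn1 in 11 each and Bmp1 in 13. Gab1, Ptpn1 and Bmp1 were lost without any single one of the prednisolone arrays, and Tsc2 without any single one of the untreated arrays. The count of 12 genes was 6 without prednisolone array 2 and 7 without prednisolone array 1, and the counts of 0 for each combination became 4 without untreated array 1. How many of all clusters passed in these alternatives was not counted, so the changes cannot be read as particular to the pathway.

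**Figure D3:**
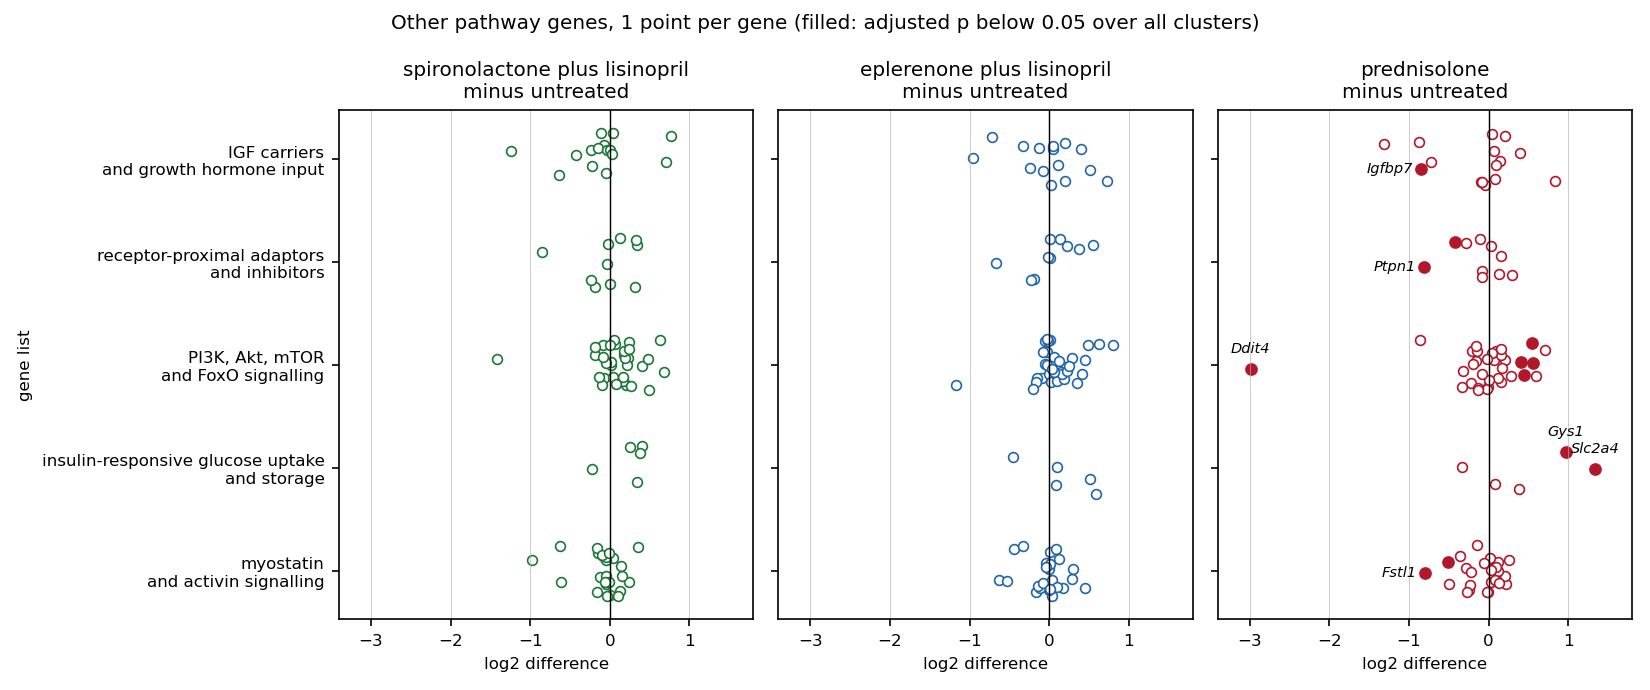
Differences in log2 signal from untreated muscle for the 88 measured pathway genes, 1 point per gene, in 5 lists (vertical position within a list is arbitrary). Filled points passed the adjusted threshold of 0.05: 12 genes under prednisolone, with those beyond 0.8 in either direction named, and none with either combination.

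The genes whose signal ran closest to the 2 that passed the test over 4 groups were taken by Pearson correlation over the 12 arrays, among 18159 candidates. These correlations follow the same group differences and the same arrays, and are given as a description. For Irs2 they were Zfp36, which encodes an mRNA-destabilising protein (r = 0.969), Birc3, an inhibitor of apoptosis (r = 0.969), and the cytokine gene Il6 (r = 0.954). Il6 read 6.47, 6.50 and 7.55 in untreated muscle and 4.49 to 5.18 in treated muscle, below the array medians of 5.70 to 5.81. The treated values lie where the liver markers average (4.46 to 5.28), and no background call was used here, so the size of the Il6 differences is uncertain. All 3 fell under prednisolone: Zfp36 by 2.35 (adjusted p = 0.00401), Birc3 by 0.84 (adjusted p = 0.00939) and Il6 by 2.18 (adjusted p = 0.00321). With spironolactone plus lisinopril Zfp36 fell by 2.16 (adjusted p = 0.0482) and Il6 by 2.09 (adjusted p = 0.0280). With eplerenone plus lisinopril Il6 was at -1.93 (adjusted p = 0.0502) and Zfp36 at -1.85 (adjusted p = 0.104).

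For Igf1 the closest were Plekha2, an adaptor that binds phosphoinositides (r = 0.957), the collagen gene Col5a1 (r = 0.950) and Pald1, a phosphatase-like gene (r = 0.945). Col5a1 read 8.54 to 8.58 with eplerenone plus lisinopril and 7.94 to 8.14 under prednisolone, a difference of 0.53 (adjusted p = 0.0220). Pald1 differed between those groups by 0.44 (adjusted p = 0.0493) and Plekha2 by 0.30 (adjusted p = 0.116). Under prednisolone Pald1 read 5.66 to 5.84, near the array medians of 5.70 to 5.81.

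**Figure D4:**
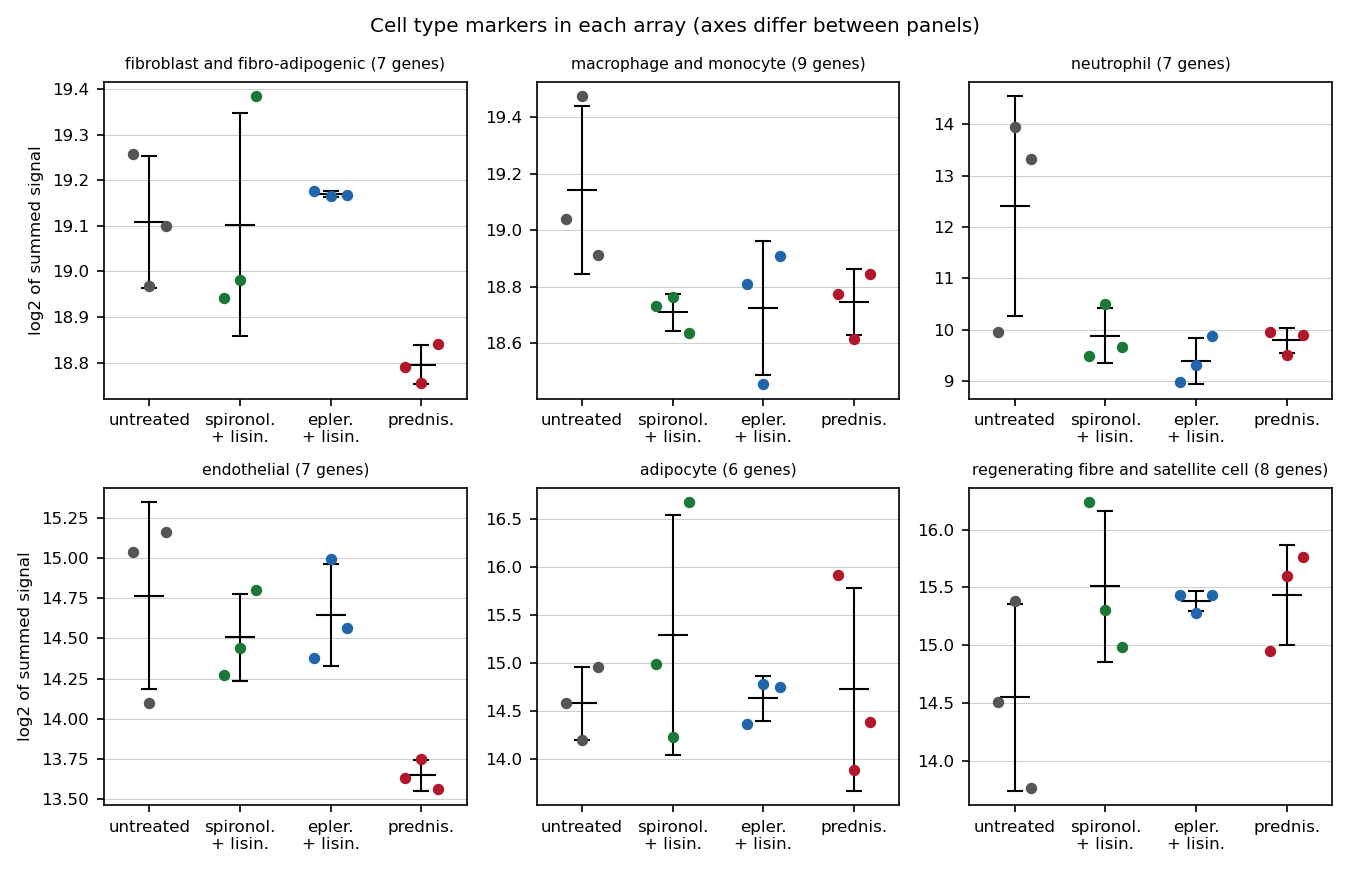
Log2 of the summed signal of cell type marker genes in each array (points), by group, with mean and SD (bars); axes differ between panels. Fibroblast (18.76 to 18.84) and endothelial (13.56 to 13.75) sums are lowest in the 3 prednisolone arrays. The neutrophil sum is high in untreated arrays 2 and 3 (13.95 and 13.32) but not in array 1 (9.96). The brightest genes of a list weigh most in its sum.

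After the authors' normalisation the array medians were 5.70 to 5.81 and the lowest pairwise correlation was 0.986. Normalisation draws the medians together, so they cannot show whether the arrays were alike in signal before it. The 8 skeletal fibre markers lay between percentiles 88.9 and 100 of all clusters, so the tissue label held. Acta1 and Myh4 averaged 19.92, close to the highest value in the table, 19.93. Regenerating fibre markers summed to 14.51, 15.38 and 13.76 in untreated muscle and to 14.95 to 16.24 in treated muscle. Of the 8 only Myh8 passed, at 0.93 under prednisolone (adjusted p = 0.0260), where 3.22% of all clusters passed as higher. Smooth muscle and pericyte markers summed to 14.87 to 15.39 under prednisolone and to 15.57 to 16.02 elsewhere. Acta2 and Rgs5 weigh most in that sum, and of the 6 genes 1 passed as lower under prednisolone against untreated muscle (3.17% of all clusters). Liver markers were at percentiles 20.0 to 42.2, and only 2 of 6 erythroid markers were measured.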

How the data were processed

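RNA from quadriceps was hybridised to 12 Affymetrix arrays with the WT PLUS kit, 1 array per sample, per the labels' protocols. RMA, Affymetrix Expression Console and Transcriptome Analysis Console are named in the submitters' processing notes, and the authors deposited log2 values. Software versions and the genome build were not given in the sources used here. Values ran from 1.61 to 19.93, and 1.27% to 1.34% per array lay above 16, the log2 ceiling of a scanner count, and no source used here describes how such values arose. A fold is 2 raised to the log2 difference and rests on that scale.

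Of 65587 clusters, 32530 were in the platform annotation and 30412 had exactly 1 symbol; 827 symbols were updated through the gene ID. These were fitted with limma 3.58.1 (R 4.3.3; lmFit, eBayes without trend, all 12 arrays), p-values were adjusted by the Benjamini-Hochberg method and the threshold was 0.05. No intensity filter was applied. The steps were tested on simulated data first. Labels call the replicates biological, and p-values set each difference against the spread between these samples within groups. An exact permutation test of 3 against 3 arrays could not go below 0.10. Members, gene lists and motifs were chosen with earlier results of these data known. Named were all members, pathway genes that passed (at most 6 per list and comparison, or the 2 with the smallest p where fewer than 2 passed), and for members past the F-test the 3 most correlated clusters, leaving out predicted genes, Rik clones and small RNAs. Marker sums are log2 of summed linear signal. Promoters came from RefSeq (GRCm38.p6), matched for 9 of 10 symbols. Alternatives changed scaling, brightness filter, clusters adjusted over, variance model, array weights, groups fitted, cluster choice, replicate block, and left out each array.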

Additional observations from a re-analysis of the deposited data

How the results depend on the processing

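With 3 arrays per group, calls near the threshold moved with the setting, and no member past the threshold changed direction in any alternative. For any difference among the 4 groups, 2 members passed, 1 when all clusters of the table were adjusted over, 1 with the replicate block, and 0 to 3 when an array was left out. For prednisolone minus untreated 2 members passed, 1 with all clusters, 1 in a fit of the 2 groups only, 1 with the replicate block (Irs2), and 1 to 2 when an array was left out. Irs2 passed there in all 20 alternatives (-1.51 to -1.27) and Igfbp3 in 10 of 20. For the spironolactone combination minus untreated 0 passed, 1 with array weights (Irs2) and 0 to 1 with an array left out. For the eplerenone combination minus untreated 0 passed, and 0 to 1 with an array left out. For the spironolactone combination minus prednisolone 0 passed, 1 with equal array medians (Igf1), 2 among bright clusters only and 2 with array weights (Igf1 and Igfbp5 in both). For the eplerenone combination minus prednisolone 1 passed, 2 among bright clusters, 2 with array weights (Igf1 and Igfbp5), 0 with the replicate block and 0 to 1 with an array left out. Between the combinations 0 passed in all 20. Pathway genes past the threshold under prednisolone numbered 12, with 20 among bright clusters, 5 in the 2 groups only and 6 to 17 with an array left out; for spironolactone 0, with 1 among bright clusters and 0 to 4 with an array left out; for eplerenone 0, and 0 to 4. Fewer clusters share the adjustment in the bright filter and fewer arrays the spread in the fit of 2 groups. The cause of the other changes was not tested. The share of all clusters that passed in each alternative was not counted.

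Of 18 same-numbered pairs of arrays 4 had a correlation of deviations over 0.1 (-0.24 to 0.16). Differently numbered pairs were not set beside them, so whether the replicate numbers pair the samples was not settled. With the replicate block, 2 limma calls missed the threshold. They were Igf1 for the eplerenone combination minus prednisolone (adjusted p = 0.0519) and Igfbp3 for prednisolone minus untreated (adjusted p = 0.0770). The alternative of a second cluster gave no value for the members, which have 1 each. Array number limits precision: the median SE of a difference was 0.13, and Igfbp3 and Mstn, with SEs of 0.40 and 0.39, could hide changes that Igf1r, at 0.07, would show.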

Other observations

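Related genes outside the lists were looked up after their values were seen. Ins2, one of the mouse insulin genes, read 5.53 on average in untreated muscle, below the array medians, and differed by -0.30 with eplerenone plus lisinopril (adjusted p = 0.213). Insig1, an insulin-induced regulator of sterol synthesis, was at 1.32 with spironolactone plus lisinopril (adjusted p = 0.202), 0.55 with eplerenone plus lisinopril (adjusted p = 0.601) and 0.37 under prednisolone (adjusted p = 0.692). Igf1os, the transcript antisense to Igf1, averaged 4.05 in untreated muscle and was at 0.50 with spironolactone plus lisinopril (adjusted p = 0.258). Irs3 averaged 5.29 in untreated muscle, like Igf1os below the array medians, and was at 0.42 under prednisolone (adjusted p = 0.366). None of these 4 passed limma in the comparisons with untreated muscle.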
